A study of Mus musculus with 56 samples.

Results

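The libraries described here are those of macrophages and monocytes from a healing skull defect on day 7, with and without regulatory T cells (Tregs). They were chosen by their labels, tissue bone and time day 7, and number 10 of the 56 libraries of the series. 5 came from Treg-depleted mice and 5 from controls. The Treg-depleted mice were Foxp3(DTR/GFP) mice, named FDG, in which the diphtheria toxin receptor and a green fluorescent protein are made under the control of Foxp3, the gene that defines Tregs. The controls were wild-type C57BL/6J mice. Both genotypes were 10 weeks old and both received diphtheria toxin (DT) into the peritoneum at 20 ng/g, begun before the injury and repeated every 2 days after it, so exposure to the toxin was shared and the receptor was not. Each mouse had a single injury, here a hole in the cranial bone. Genotype and depletion go together in this design and cannot be told apart. The labels do not state that each library is a different animal. The p-values therefore reflect how far these libraries spread, which may be technical in part. The series also holds skull libraries from day 10 (6 libraries) and day 7 libraries from a muscle defect (6) and a skin wound (8), which are used below only to show where the skull response differs.

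Tregs are CD4 T cells that restrain other T cells and, in wounds, make factors that act on myeloid cells. Monocytes enter an injured bone from the blood, marked by Ly6c2, and mature there into macrophages that clear dead cells, break down matrix, secrete growth factors and, in bone, can fuse into osteoclasts. Interferon gamma from T and natural killer (NK) cells is the classical signal that turns macrophages towards antigen processing and defence.

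Of 12709 genes tested, 2994 differed between depleted and control libraries at an adjusted p under 0.05 by edgeR's quasi-likelihood test, which is 23.6% of them. Higher in the depleted group were 1393 (11%) and lower were 1601 (12.6%). These 3 shares are the background against which the counts below should be read. The gene lists below were chosen with earlier results of these data known. Their counts and the p-values of their sums are therefore not independent evidence. The change was at least 2-fold for 594 higher and 840 lower genes. The 5 depleted and 5 control libraries did not overlap at all for 1968 genes (15.5%), of which 1798 were among the 2994 that differed. The median log2 change of all genes tested was -0.000448. Values are given as CPM, the counts scaled to a common library size after normalisation, changes as log2 of depleted over control with the standard error (SE), and "passed" means an adjusted p under 0.05.

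**Figure D1:**
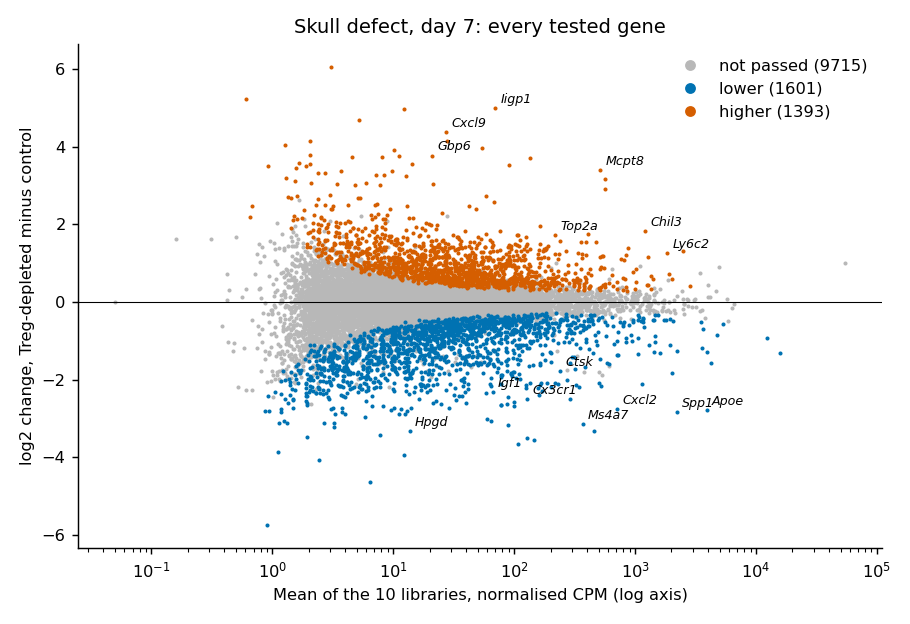
Each point is 1 of the 12709 tested genes, placed by its mean CPM over the 10 day 7 skull libraries (log axis) and by its log2 change, depleted minus control. Orange points (1393) were higher and blue points (1601) lower at an adjusted p under 0.05, and changes beyond 2 log2 units occur on both sides.

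Depth was 3541901 to 5835113 counts per library in the depleted group and 2318268 to 4285921 in the controls (two-sided exact permutation p = 0.0317, where 0.00794 is the smallest that 5 against 5 can give). The share of counts on the ribosomal RNA gene Rn18s-rs5 was 7.33% ± 2.25 (SD, n = 5) in the depleted group and 3.45% ± 2.54 in the controls (exact permutation p = 0.0397). It overlapped between groups, since control library 3 stood at 7.76% and depleted library 2 at 4.93%. The first principal component held 43.3% of the variance and set all 5 depleted libraries apart from all 5 controls, control library 3 included. The share of Rn18s-rs5 moved with the groups. The day 7 skull count of every list below was therefore also made with the Rn18s-rs5 level as a covariate, under which 1166 genes in all passed. The day 10 and between-tissue comparisons were not run with it. The covariate count is given beside a list where it differs from the first by more than 1.5 times, with the list's median under the covariate. The part of Rn18s-rs5 in those results was not tested beyond the covariate. Foxp3 itself, below the filter on low counts, had 1, 4, 2, 0 and 0 counts in depleted libraries 1 to 5 and 0, 0, 0, 15 and 7 in control libraries 1 to 5. These counts were read in sorted monocytes and macrophages and do not measure how far Tregs were depleted.

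The sort was for monocytes and macrophages, and the markers of that identity were present in every library but lower after depletion. Of 12 such genes 8 fell and none rose. Csf1r, the receptor for the macrophage growth factor CSF1, measured 225, 200, 271, 194 and 154 CPM in depleted libraries 1 to 5 and 463, 425, 382, 436 and 516 CPM in control libraries 1 to 5. The groups did not overlap, and the change was -1.09 ± 0.14 (SE, adjusted p = 1.05e-05). Cd68, a lysosomal glycoprotein of macrophages, fell by 1.60 on the log2 scale, Cd14, the co-receptor for bacterial lipopolysaccharide, by 1.46 and Adgre1, which encodes F4/80, by 1.31. The general leukocyte gene Ptprc (0.10) and the myeloid integrin Itgam (0.26) did not pass. In bulk libraries fewer cells of a type and less RNA per cell cannot be told apart, and that holds for every result here.

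Genes of mature tissue macrophages were lower after depletion. Of 27 tested, 20 fell and none rose, with a median log2 change of -1.60, and their summed level was 2001 to 2868 CPM in the depleted libraries against 5383 to 7091 CPM in the controls (exact permutation p = 0.00794). Cx3cr1, the fractalkine receptor, measured 43.9, 46.9, 28.9, 25.5 and 46.4 CPM in depleted libraries 1 to 5 and 206, 218, 210, 176 and 276 CPM in control libraries 1 to 5. Every control library was far above every depleted one, and the change was -2.51 ± 0.18 (SE, adjusted p = 2.92e-08). Apoe, the lipid carrier apolipoprotein E, measured 956, 896, 1496, 935 and 671 CPM in the depleted libraries and 6680, 4650, 7564, 7576 and 7651 CPM in the controls. Its lowest control library was above its highest depleted library, and it fell by 2.78 (adjusted p = 1.27e-07).

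The 3 chains of complement C1q, which opsonises dying cells, fell together: C1qa by 2.28, C1qb by 2.17 and C1qc by 2.14, each without overlap. C1qa measured 62.0, 49.5, 93.7, 51.4 and 35.8 CPM in the depleted libraries and 303, 296, 245, 314 and 265 CPM in the controls. C3ar1, the receptor for the complement fragment C3a, fell by 2.58. Ms4a7, a membrane protein of tissue macrophages, fell by 3.15 (74.7 ± 21.1 CPM against 662 ± 168 CPM, mean ± SD). Folr2, the folate receptor of resident macrophages, fell by 3.06 and Cbr2, a carbonyl reductase, by 3.16. The mannose receptor Mrc1 did not pass: it measured 24.7, 27.7, 67.9, 20.2 and 15.5 CPM in the depleted libraries and 77.5, 45.8, 31.3, 78.4 and 53.5 CPM in the controls. Depleted library 3 was within the control range and the other 4 were below all 5 controls, which gave a log2 change of -0.88 (adjusted p = 0.141).

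Among 30 transcription factors of macrophages, 18 fell and 3 rose (median -0.67), or 13 and 1 with the covariate (median -0.51). Maf, which helps to hold macrophages in a mature and non-dividing state, fell by 1.43 (24.2 ± 10.4 CPM against 65.3 ± 15.1 CPM), without overlap.

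**Figure D2:**
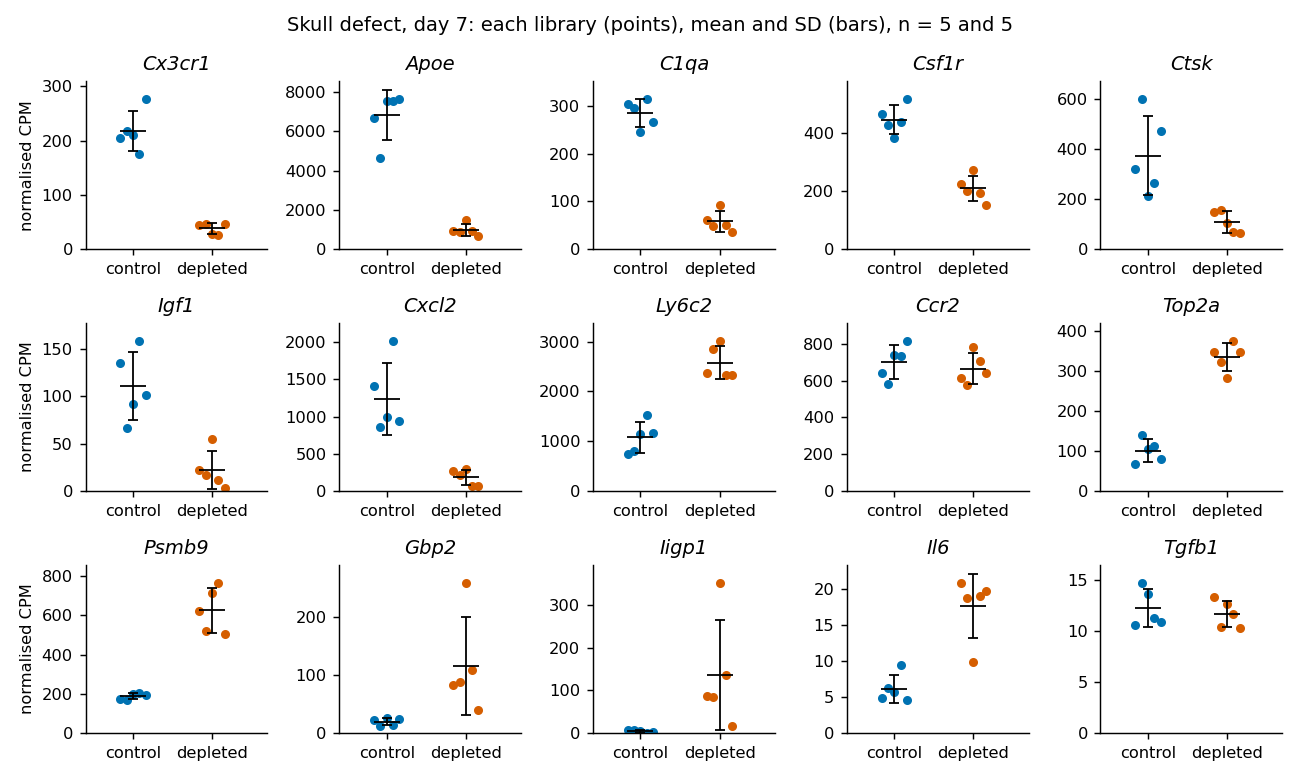
Normalised CPM (linear axis from 0) of 15 genes in each day 7 skull library, with the mean and SD of the 5 control (blue) and 5 depleted (orange) libraries. Cx3cr1, Apoe, C1qa, Csf1r, Ctsk, Igf1 and Cxcl2 are lower and Ly6c2, Top2a, Psmb9, Gbp2, Iigp1 and Il6 higher in all 5 depleted libraries, while Ccr2 and Tgfb1 overlap.

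Genes of lipid-laden, phagocytic macrophages fell nearly throughout. Of 25 tested in the lipid-associated macrophage list 23 fell and none rose (median -1.37). Trem2, a lipid receptor of such cells, measured 92.3, 86.1, 121, 49.8 and 81.9 CPM in the depleted libraries and 438, 270, 382, 454 and 326 CPM in the controls, a change of -2.12 ± 0.19 (SE, adjusted p = 4.75e-07) without overlap. Spp1, which encodes osteopontin and is also made by osteoblasts, measured 606, 568, 1040, 148 and 372 CPM in the depleted libraries and 4357, 3114, 3852, 4501 and 3648 CPM in the controls. Its 5 depleted libraries were all below the controls but ranged widely among themselves, from 148 in library 4 to 1040 in library 3. Gpnmb, a glycoprotein of lysosome-rich macrophages, fell by 2.66 (21.2 ± 17.6 CPM against 134 ± 29.9 CPM).

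Of 11 genes for cholesterol efflux and other targets of the oxysterol receptor LXR, 6 fell, with Pltp, a phospholipid transfer protein, at -2.19 ± 0.17 (SE, adjusted p = 5.05e-08) and Abca1, the cholesterol exporter, at -1.82 (adjusted p = 0.000521). Of 19 tested efferocytosis genes 12 fell and 1 rose. Mertk, a receptor for dying cells, fell by 1.86 from a low level (2.11 ± 1.05 CPM against 7.88 ± 2.84 CPM), its bridging ligand Gas6 by 2.12 and the scavenger receptor Stab1 by 2.12. Of 42 lysosomal hydrolases and membrane proteins 34 fell and 1 rose (median -0.74), or 23 and none with the covariate (median -0.73). The protease Ctsd fell by 1.36, the membrane protein Cd63 by 1.31 and Hexa, a hexosaminidase subunit, by 0.99, each without overlap. Both chains of the iron store ferritin fell, Fth1 by 1.57 and Ftl1 by 1.31, as did Hmox1, the haem-degrading oxygenase, by 2.42. In all 10 of 21 iron and haem genes fell and 2 rose (median -0.79), or 6 and 2 with the covariate (median -0.68).

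Genes of osteoclasts, the bone-resorbing cells that macrophage precursors form, were lower. Of 19 tested 14 fell and none rose (median -1.26), and 9 of the 19 did not overlap between groups. Ctsk, the collagen-cleaving cathepsin K, measured 147, 158, 104, 67.7 and 63.9 CPM in depleted libraries 1 to 5 and 319, 599, 213, 265 and 470 CPM in control libraries 1 to 5. The highest depleted value was below the lowest control value, and the change was -1.78 ± 0.32 (SE, adjusted p = 0.000799). Acp5, the tartrate-resistant acid phosphatase, fell by 1.58 (296 ± 126 CPM against 882 ± 329 CPM) and Tnfrsf11a, which encodes RANK, the receptor for the osteoclast-inducing ligand, by 1.96. The proton pump subunit Atp6v0d2 fell by 1.96 and the membrane-type matrix protease Mmp14 by 1.62. With the Rn18s-rs5 covariate 3 genes of the list fell (median -0.99), and Ctsk and Acp5 did not pass. Of 21 matrix proteases and inhibitors 12 fell and 2 rose (median -1.33), or 4 and 1 with the covariate (median -1.10).

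Growth factors that macrophages supply to healing tissue were mostly lower. Of 25 tested 14 fell and 1 rose (median -1.07), or 10 and none with the covariate (median -1.22). Igf1, insulin-like growth factor 1, measured 22.7, 17.2, 55.0, 11.2 and 3.44 CPM in depleted libraries 1 to 5 and 135, 66.5, 92.3, 158 and 102 CPM in control libraries 1 to 5. The groups did not overlap although the depleted libraries spread from 3.44 to 55.0, and the change was -2.33 ± 0.52 (SE, adjusted p = 0.0053). Pdgfa fell by 2.15 and Pdgfb by 1.98, both platelet-derived growth factor chains, and Gdf15, a stress-induced family member of TGF-beta, by 2.80. Vegfa, the angiogenic factor, fell by 1.07 (adjusted p = 0.00167), with control library 5 (12.7 CPM) inside the range of the depleted libraries (7.85 to 14.6). Pdgfb did not pass with the covariate. Hbegf, an epidermal growth factor receptor ligand (-1.10, adjusted p = 0.101), and Osm, oncostatin M, a cytokine that acts on bone-forming cells (0.23, adjusted p = 0.235), did not pass. Bmp2, a bone-inducing ligand, was below the filter with 15 counts in each group.

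The ligand Tgfb1 did not pass: it measured 13.3, 10.4, 12.7, 11.7 and 10.3 CPM in the depleted libraries and 10.6, 14.8, 13.7, 11.2 and 10.9 CPM in the controls, with overlapping ranges and a log2 change of -0.07 ± 0.18 (adjusted p = 0.813). Both receptor chains were lower without overlap, Tgfbr1 at -1.19 (13.5 ± 1.44 CPM against 30.8 ± 4.29 CPM) and Tgfbr2 at -1.22 (12.7 ± 1.82 CPM against 29.6 ± 4.91 CPM). In all 11 of 20 TGF-beta signalling genes fell and none rose (median -0.97), or 6 with the covariate at the same median of -0.97. Among enzymes of lipid mediators, Hpgd, which inactivates prostaglandins, fell the most of that list, -3.33 ± 0.32 (SE, adjusted p = 5.32e-07), from 24.6, 23.1, 18.0, 23.6 and 35.8 CPM in the controls to 0.655, 2.75, 1.90, 4.48 and 2.00 CPM in the depleted libraries. No library overlapped. Hpgds, the haematopoietic prostaglandin D synthase, fell by 2.20 and Ltc4s, leukotriene C4 synthase, by 2.64. Over that list of 20 genes, 6 fell and 2 rose (median -0.19), or 4 and none with the covariate (median -0.15).

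Markers of freshly recruited monocytes were higher in part. Ly6c2, the surface antigen of classical monocytes, measured 2376, 2847, 3016, 2330 and 2336 CPM in depleted libraries 1 to 5 and 751, 811, 1156, 1529 and 1162 CPM in control libraries 1 to 5. All depleted libraries were above all controls, a change of 1.25 ± 0.17 (SE, adjusted p = 2.27e-05). Plac8 rose by 1.15 and Chil3, the secreted chitinase-like protein of new monocytes, by 1.82 (1884 ± 255 CPM against 534 ± 208 CPM). Ccr2, the chemokine receptor that brings these cells out of the marrow, did not pass: it measured 616, 574, 785, 706 and 642 CPM in the depleted libraries and 642, 579, 736, 733 and 815 CPM in the controls, with overlapping groups and a change of -0.08 ± 0.11 (adjusted p = 0.659). Over 25 classical monocyte genes 10 rose and 7 fell (median 0.43), so the list did not move as 1 block, and with the covariate 8 rose and 2 fell (median 0.39). Leaving out depleted library 4 or 5 left 3 that fell, and leaving out control library 4 left 4. The summed level of the list overlapped between groups. It was 25990 to 30530 CPM in the depleted libraries and 23110 to 33540 CPM in the controls (exact permutation p = 0.524).

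Genes of granule-forming myeloid progenitors were more often higher than lower. Of 25 tested 10 rose and 2 fell (median 0.53), or 5 and 1 with the covariate (median 0.44). Prtn3, proteinase 3, rose by 1.53 (530 ± 96.5 CPM against 183 ± 58.5 CPM), without overlap. Mpo, myeloperoxidase, did not pass (0.58, adjusted p = 0.146), at 698, 982, 436, 726 and 820 CPM in the depleted libraries and 317, 587, 699, 365 and 473 CPM in the controls. Its ranges overlapped widely.

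Cell cycle genes rose as a group. Of 42 mitosis genes all 42 were higher, 40 of them without overlap (median 1.29), and of 34 S phase genes 30 were higher and none lower (median 1.04). With the covariate 33 mitosis and 19 S phase genes passed, all higher, at medians of 1.18 and 1.05. Top2a, the topoisomerase that untangles chromosomes, measured 346, 321, 282, 374 and 346 CPM in depleted libraries 1 to 5 and 68.6, 140, 105, 112 and 80.2 CPM in control libraries 1 to 5. The lowest depleted library was at 282 CPM and the highest control at 140 CPM, and the change was 1.72 ± 0.16 (SE, adjusted p = 4.75e-07). Nusap1, a spindle protein, measured 244, 227, 221, 251 and 272 CPM in the depleted libraries and 72.5, 95.2, 92.6, 86.2 and 87.9 CPM in the controls, a change of 1.48 ± 0.14 (SE, adjusted p = 3.91e-07) with the groups well apart.

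Mki67, the proliferation antigen Ki-67, rose by 1.54 (97.8 ± 9.80 CPM against 34.0 ± 10.8 CPM) and Cenpe, a kinetochore motor, by 1.67. For DNA synthesis, Rrm2, a ribonucleotide reductase subunit, rose by 1.44, Mcm3 of the replicative helicase by 1.09, Lig1, the DNA ligase of replication, by 1.31 and Cdc6, which loads the helicase, by 2.03. The level of Cdc6 was 18.6 to 46.2 CPM in the depleted libraries and 4.53 to 10.2 CPM in the controls. The D-type cyclin Ccnd3 rose by 0.84. Cdkn1a, the inhibitor p21, was lower in all 5 depleted libraries (237, 230, 182, 201 and 145 CPM in the depleted libraries and 437, 286, 330, 407 and 272 CPM in the controls), a change of -0.80 ± 0.15 (SE, adjusted p = 0.000638). Of 23 cell cycle inhibitors and p53 targets 8 fell and 3 rose (median -0.30), or 3 and 2 with the covariate (median -0.40). Without depleted library 4, 5 of them fell.

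The promoters of the 2 mitosis genes with the smallest p are shown because the group moved together. They hold the 250 bases before each gene's start, 5′ to 3′ on the strand of the gene, from RefSeq (GRCm38.p6). Capitals mark the cell cycle homology region TTTGAA and the CCAAT box CCAAT on either strand. Top2a lies at chr11:99024190-99024439, minus strand, and holds 2 TTTGAA and 6 CCAAT matches. Nusap1 lies at chr2:119618048-119618297, plus strand, and holds neither.
Top2a: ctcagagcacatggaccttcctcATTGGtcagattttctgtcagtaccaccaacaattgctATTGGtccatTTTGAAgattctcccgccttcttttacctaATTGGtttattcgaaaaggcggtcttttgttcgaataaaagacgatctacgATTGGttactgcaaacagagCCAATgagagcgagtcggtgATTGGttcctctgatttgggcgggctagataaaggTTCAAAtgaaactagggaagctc
Nusap1: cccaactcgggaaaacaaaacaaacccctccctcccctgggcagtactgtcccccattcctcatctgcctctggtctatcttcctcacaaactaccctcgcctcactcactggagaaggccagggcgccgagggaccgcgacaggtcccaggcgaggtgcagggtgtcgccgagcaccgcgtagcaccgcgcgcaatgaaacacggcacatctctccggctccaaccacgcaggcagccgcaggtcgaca
Over the 36 mitosis genes with a promoter in the table, TTTGAA was in 13 (36.1%) and CCAAT in 28 (77.8%), against 16.3% and 34.5% of all 27025 promoters and 11.1% and 37.2% of the 8867 promoters of tested genes. TTTGAA was also in 5 of 10 promoters of interferon-inducible GTPases. Of 28 S phase promoters 10.7% held TTTGAA and 57.1% CCAAT. A match is a run of letters and not a measured binding site.

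Genes known as targets of interferon gamma rose in 2 groups, the large GTPases that attack intracellular pathogens and the machinery that cuts and loads peptides for MHC class I. Of 16 GTPases 15 rose and none fell (median 2.06), and 13 of the 16 did not overlap between groups. With the covariate 10 rose. Of 23 immunoproteasome and peptide loading genes 13 rose and none fell (median 0.69), or 7 with the covariate (median 0.64). Psmb9, a catalytic subunit of the immunoproteasome, measured 624, 522, 713, 767 and 506 CPM in depleted libraries 1 to 5 and 174, 167, 200, 204 and 195 CPM in control libraries 1 to 5. The lowest depleted library, at 506 CPM, stood far above the highest control, at 204 CPM, and the change was 1.74 ± 0.14 (SE, adjusted p = 6.41e-08).

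Tap1, a peptide transporter chain, measured 266, 253, 356, 292 and 214 CPM in the depleted libraries and 126, 94.4, 92.0, 92.1 and 105 CPM in the controls, a change of 1.44 ± 0.14 (SE, adjusted p = 5.32e-07), and the proteasome subunit Psmb10 rose by 0.85. Irf1, a transcription factor that interferon gamma induces, rose by 1.42 (82.9 ± 28.3 CPM against 31.1 ± 7.24 CPM). Among guanylate-binding proteins Gbp2 rose by 2.58, Gbp3 by 1.59, Gbp6 by 3.76 and Gbp7 by 1.74.

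The GTPase Iigp1 measured 86.7, 85.0, 354, 136 and 16.0 CPM in depleted libraries 1 to 5 and 6.26, 7.49, 3.33, 0.703 and 1.36 CPM in control libraries 1 to 5. The groups did not overlap, but the depleted libraries spread from 16.0 to 354 CPM, with library 3 highest and library 5 lowest, and the change was 4.98 ± 0.78 (SE, adjusted p = 0.000482). Gbp2 showed the same order at its ends, 260 CPM in depleted library 3 and 40.4 CPM in depleted library 5. Cxcl9, a T cell attractant, measured 26.0, 10.3, 190, 29.1 and 6.59 CPM in the depleted libraries and 2.41, 1.93, 2.67, 3.17 and 2.72 CPM in the controls, a change of 4.36 ± 0.93 (SE, adjusted p = 0.00424), and did not pass with the covariate. Serpina3g, a protease inhibitor, rose by 4.14, and depleted library 3 was again highest at 140 CPM.

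Other interferon-linked genes were mixed or lower. Cxcl10, a sister of Cxcl9, measured 25.5, 9.89, 67.5, 22.1 and 5.44 CPM in the depleted libraries and 15.9, 7.49, 12.7, 19.3 and 16.3 CPM in the controls, with wide overlap (0.89, adjusted p = 0.254). The checkpoint ligand Cd274 (0.40, adjusted p = 0.44) and the class II transactivator Ciita (-0.41, adjusted p = 0.327) did not pass. Of 15 MHC class II genes 8 fell and none rose (median -0.78). The class II chain H2-Eb1 fell by 1.37 without overlap (405 ± 167 CPM against 1049 ± 234 CPM). The invariant chain Cd74 fell by 1.10 (adjusted p = 0.0123), with depleted library 3 (2399 CPM) inside the control range, and Cd86, a T cell costimulator, by 0.99. Of 33 antiviral genes of type I interferon 7 rose and 7 fell (median 0.04), or 2 and 3 with the covariate (median 0.06). Rsad2, viperin, fell by 1.97 (15.4 ± 2.56 CPM against 60.6 ± 25.6 CPM) while Zbp1, a nucleic acid sensor, rose by 1.09, both without overlap. Leaving out depleted library 3 or 4 or control library 2 or 5 left 3 or 4 of the 7 that rose.

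Psmb9 and Tap1 are divergent neighbours, and the stretch between their RefSeq starts is shown with the promoters of Gbp3 and Gbp7, neighbours on chromosome 3, which were added after the motif shares were seen. The first is read towards Tap1. In GENCODE M21 the annotated spans of the pair overlap, so the stretch depends on the RefSeq starts. All are from RefSeq (GRCm38.p6), plus strand, at chr17:34187331-34187555, chr3:142559794-142560043 and chr3:142530086-142530335. Capitals mark CCAAT, the interferon-stimulated response element (a pair of GAAA runs with any 2 bases between them) and the gamma-activated site TTCNNNGAA on either strand.
Psmb9 and Tap1: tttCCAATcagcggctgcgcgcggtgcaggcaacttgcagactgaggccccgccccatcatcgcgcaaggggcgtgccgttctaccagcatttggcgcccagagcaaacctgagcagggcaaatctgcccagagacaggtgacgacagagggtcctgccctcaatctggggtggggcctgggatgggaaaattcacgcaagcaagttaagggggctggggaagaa
Gbp3: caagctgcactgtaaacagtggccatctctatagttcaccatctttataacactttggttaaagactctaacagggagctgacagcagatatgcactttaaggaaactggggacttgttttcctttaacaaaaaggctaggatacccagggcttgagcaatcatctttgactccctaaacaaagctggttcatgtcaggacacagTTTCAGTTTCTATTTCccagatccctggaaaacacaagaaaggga
Gbp7: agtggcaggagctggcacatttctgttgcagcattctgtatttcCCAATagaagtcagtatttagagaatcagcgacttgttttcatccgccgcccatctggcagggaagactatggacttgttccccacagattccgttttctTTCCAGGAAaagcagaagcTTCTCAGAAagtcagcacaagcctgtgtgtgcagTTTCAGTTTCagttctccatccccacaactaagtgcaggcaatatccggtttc
Among the 10 GTPase promoters of that set, 9 (90.0%) held the interferon-stimulated response element and 6 (60.0%) held TTCNNNGAA, against 3.05% and 7.14% of all promoters. Among promoters of tested genes the shares were 2.93% and 5.95%. The pair of response elements in Gbp3 overlap each other. The stretch between Psmb9 and Tap1 holds 1 CCAAT and no match to the interferon motifs in these letters. Of 20 immunoproteasome and peptide loading promoters 15.0% held the response element and 75.0% held CCAAT. The E-box motif CACGTG, bound by regulators of lysosomal genes, was in 10 of 34 lysosomal promoters (29.4%). It was in 6.04% of all promoters and 8.57% of those of tested genes.

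**Figure D3:**
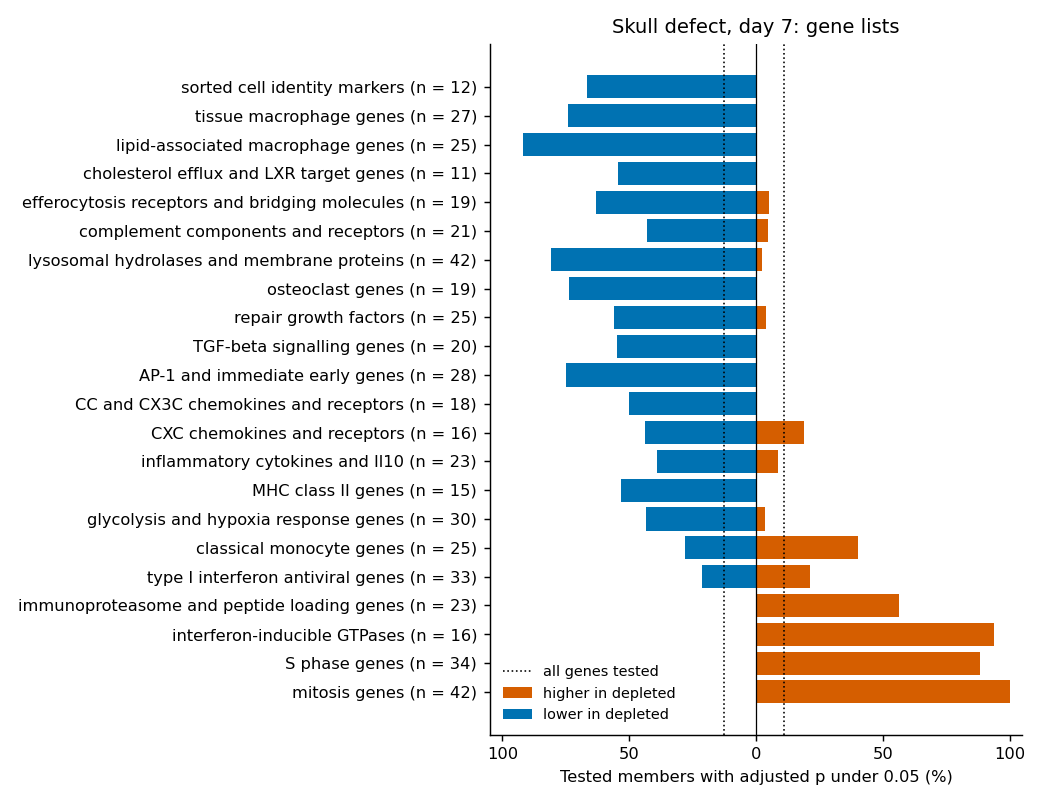
For each gene list, the percent of its tested members (n in brackets) that were higher (orange, to the right) or lower (blue, to the left) in depleted libraries at an adjusted p under 0.05, with dotted lines at the shares of all genes tested (11% higher, 12.6% lower). Macrophage, lysosome and early response lists lie on the lower side, and cell cycle lists and interferon-inducible GTPases on the higher side.

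Inflammatory cytokines were lower more often than higher. Of 23 tested 9 fell and 2 rose (median -0.30), or 4 and 1 with the covariate (median -0.21), and 4 rose without depleted library 5. Tnf, tumour necrosis factor, fell by 1.24 without overlap (11.8 ± 6.12 CPM against 28.2 ± 8.90 CPM) and Il1b, interleukin 1 beta, by 0.83 with overlap. Il1rn, the natural antagonist of interleukin 1, fell by 1.98 and Il10, the anti-inflammatory cytokine, by 1.88 from a level of at most 3.61 CPM. Neither Il1b nor Il10 passed with the covariate. Il6 went the other way: it measured 20.9, 18.9, 9.91, 19.1 and 19.8 CPM in the depleted libraries and 4.81, 6.21, 5.67, 9.49 and 4.53 CPM in the controls. The groups met most closely at depleted library 3 (9.91) and control library 4 (9.49) and did not overlap, a change of 1.52 ± 0.26 (SE, adjusted p = 0.000216). Nos2, the inducible nitric oxide synthase, was below the filter, with 17 counts over the depleted libraries and 5 over the controls.

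Several chemokines that draw monocytes and neutrophils fell. Ccl2 and Ccl7, both ligands of Ccr2, fell by 1.58 and 2.01 without overlap. Cxcl2, a neutrophil attractant, measured 269, 211, 291, 67.4 and 75.3 CPM in depleted libraries 1 to 5 and 1415, 856, 991, 2018 and 936 CPM in control libraries 1 to 5, a change of -2.76 ± 0.41 (SE, adjusted p = 0.0003). All controls were above all depleted libraries. Of 18 CC and CX3C genes 9 fell and none rose, and of 16 CXC genes 7 fell and 3 rose (median -1.36), or 6 and 1 with the covariate at the same median of -1.36. Of 21 NF-kappaB subunits and feedback genes 9 fell and none rose (median -0.22), or 4 with the covariate (median -0.48). The inhibitor Nfkbia was among the 9 (-1.01, 316 ± 41.7 CPM against 638 ± 99.5 CPM). Cd83, an activation antigen, fell by 2.39.

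Immediate early genes, which cells switch on within minutes of a stimulus, were lower. Of 28 tested 21 fell and none rose (median -0.97). Dusp1, a phosphatase that ends stress kinase signals, measured 468, 520, 543, 311 and 279 CPM in the depleted libraries and 2300, 1375, 2298, 1540 and 1675 CPM in the controls, a change of -2.12 ± 0.19 (SE, adjusted p = 4.75e-07) without overlap. Egr1 fell by 1.84 and Fos by 1.00, both transcription factors of this class. Fkbp5, a glucocorticoid target, rose by 1.66, and was the 1 gene of 14 on that list to rise, while 5 fell, Dusp1 and Nfkbia among them.

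In metabolism, 13 of 30 glycolysis and hypoxia response genes fell and 1 rose (median -0.36), or 4 and none with the covariate (median -0.35), and 8 fell without depleted library 1 or 4. Slc16a3, a lactate exporter, fell by 0.94. Arg1, the arginase of alternatively activated macrophages, did not pass (-0.67, adjusted p = 0.514): it measured 60.0, 85.4, 368, 23.2 and 38.7 CPM in the depleted libraries and 113, 125, 124, 386 and 171 CPM in the controls. Depleted library 3 and control library 4 stood far above the rest of their own groups. Of 22 unfolded protein and amino acid stress genes 10 rose and 2 fell (median 0.29), or 4 and 1 with the covariate (median 0.35). Psat1, an enzyme of serine synthesis, rose by 1.17 and Manf, a factor of the endoplasmic reticulum, by 0.71. Phgdh, the first enzyme of serine synthesis, showed 21.8, 21.4, 12.9, 21.3 and 431 CPM in the depleted libraries and 5.30, 10.9, 6.33, 3.87 and 4.53 CPM in the controls. Depleted library 5 was far above the other 4, which were themselves above every control, and the change of 3.95 lost its call in 5 of the alternatives.

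Markers of other cell types also moved with the groups, and their part in the results above was not tested. Of mast cell and basophil markers, 10 of 14 tested were higher and none lower, with a summed level of 833.5 to 5238 CPM in the depleted libraries against 122.4 to 438.2 CPM in the controls (exact permutation p = 0.00794). Mcpt8, a protease of basophils, measured 461, 996, 284, 616 and 2310 CPM in the depleted libraries and 63.5, 109, 155, 73.8 and 41.7 CPM in the controls. Depleted library 5 was highest, and no library overlapped (3.39 ± 0.59 (SE, adjusted p = 0.00111)). Ms4a2, a chain of the receptor for immunoglobulin E, rose by 3.26 and Cpa3, a granule carboxypeptidase, by 3.03. Il6 and Hdc are also on this list.

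T and NK cell markers rose in 12 of 16 tested and fell in 1, while 12 of the 28 listed were below the filter. Their median log2 change was 2.11. With the covariate 4 rose and none fell (median 1.39). Their summed level was 205.7 to 492.1 CPM against 138.4 to 173.3 CPM (exact permutation p = 0.00794). Gzmb, granzyme B, measured 9.60, 13.4, 29.1, 18.3 and 4.01 CPM in the depleted libraries and 1.20, 0.428, 1.00, 1.41 and 1.81 CPM in the controls and rose by 3.74. Trbc2, a T cell receptor constant chain, rose by 3.01 and Cd8b1, a chain of CD8, by 3.01. Cd3e and Ifng, interferon gamma itself, were below the filter. Cd3e had 65 counts over the depleted libraries and 6 over the controls, and Ifng had 16 and 2. Depleted library 3, which had the highest Gbp2, Iigp1 and Cxcl9, also had the highest Gzmb, Trbc2 and Cd8b1 of the 10 libraries. That library also stood above the rest of its group for Arg1, Mrc1, Folr2 and Ltc4s. A link between these values was not tested.

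Neutrophil markers rose in 11 of 24 and fell in none, or 5 with the covariate and 18 without depleted library 3. The median was 0.97, or 0.79 with the covariate, with a sum of 9734 to 30170 CPM against 6384 to 14510 CPM (exact permutation p = 0.0317). Lcn2, lipocalin 2, rose by 1.54 and the collagenase Mmp8 by 1.30, both without overlap. The calprotectin chain S100a8, at 3630 to 10290 CPM in the depleted libraries and 1884 to 4774 CPM in the controls, did not pass (0.91, adjusted p = 0.0673). Markers lower in depleted libraries included Ppbp and Pf4, platelet factor 4. Ppbp, which is also on the CXC list, fell by 3.94 and Pf4 by 3.32 (83.8 ± 52.5 CPM against 839 ± 393 CPM). Whether platelets or the sorted cells held these transcripts was not tested. Erythroid and megakaryocyte markers summed to 109.5 to 321 CPM against 876.2 to 2002 CPM, with 8 of 12 lower and 1 higher (median -1.48), or 2 and 1 with the covariate (median -1.11). Without control library 2 the lower count was 3, and without depleted library 4 or control library 4 it was 5.

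Osteoblast and bone matrix markers summed to 338.6 to 2539 CPM against 5153 to 8311 CPM, with 3 of 9 lower (median -1.80), or 6 by limma-voom, by DESeq2 or without depleted library 1 and 5 without control library 4. Spp1 and Col1a1, which other lists also hold, are on this list. Spp1, whose levels are given above, made up much of these sums, and with it taken out the ranges of the groups overlap. Bglap and Bglap2, the genes of osteocalcin, were lower, at -3.55 and -3.65 on the log2 scale. Fibroblast, mural and endothelial markers summed to 275.3 to 2531 CPM against 1542 to 5668 CPM (exact permutation p = 0.0397), with 3 of 18 lower and 1 higher. With the covariate none was lower or higher (median -1.44). The lower count ran from 0 to 14 over the alternatives while the median log2 change stayed between -2.13 and -1.31. It was 14 by limma-voom, with the replicate block or without depleted library 1, 7 by DESeq2 or without control library 5 and 6 without control library 4. It was 1 without depleted library 2 or with no filter, and 0 with the covariate, with the 10 day 7 libraries alone or without depleted library 3, 4 or 5 or control library 1, 2 or 3. Col1a1, type I collagen, spread from 43.0 to 539 CPM in the depleted libraries and from 266 to 1452 CPM in the controls and did not pass (adjusted p = 0.0619). Dendritic cell markers fell in 6 of 13 tested and rose in none, or in 3 with the covariate (median -0.65, or -0.72 with it). Their summed level was 171.3 to 388.7 CPM against 389.2 to 558 CPM. Sums of B and plasma cell markers overlapped (exact permutation p = 0.325), with 2 of 10 lower (median -0.95), or 1 with the covariate (median -0.45), and of 9 eosinophil markers 1 was lower. The microglia and brain list, 6 of 12 tested, summed to 20.9 to 47.5 CPM in the depleted libraries and 51.7 to 79.0 CPM in the controls, and Sall1 and Mog, markers of microglia and oligodendrocytes, were at 0 in all 10.

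**Figure D4:**
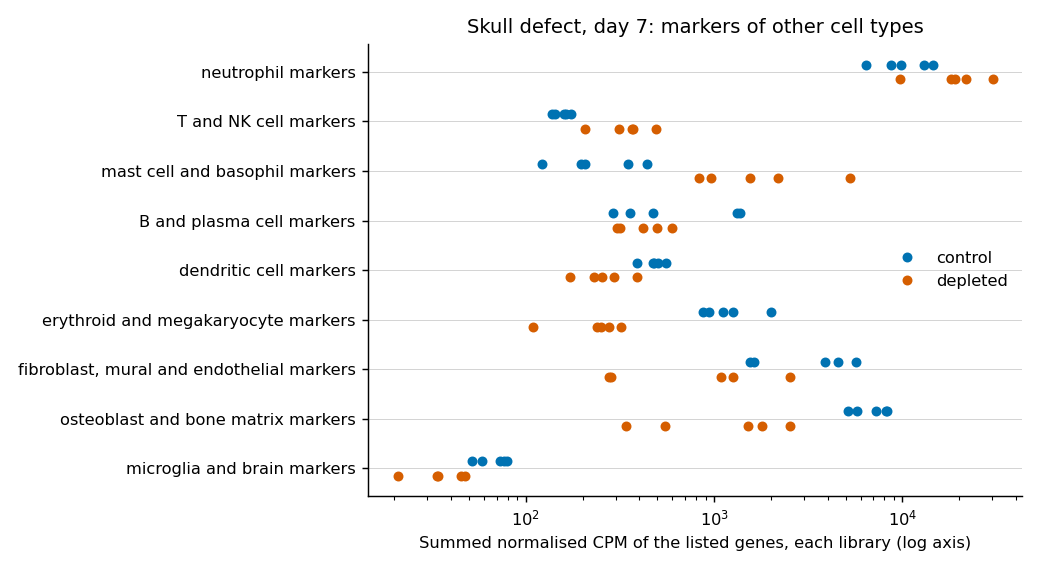
Summed normalised CPM (log axis) of the markers of 9 other cell types in each of the 5 control (blue) and 5 depleted (orange) day 7 skull libraries. Mast cell and basophil and T and NK cell sums lie above all controls in the depleted libraries, and erythroid and megakaryocyte, osteoblast and microglia sums lie below them. The gap in the osteoblast sums depends on Spp1, which another list also holds.

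On day 10 the skull had 3 depleted and 3 control libraries of its own, and 2182 of 12709 genes passed there. Higher were 1137 (8.95%) and lower 1045 (8.22%), the background for list counts on day 10. The mitochondrial share of counts on day 10 was 2.11% to 2.88% in the depleted libraries and 1.06% to 1.35% in the controls, and that of Rn18s-rs5 was 6.70% to 9.50% and 1.71% to 2.61%. Of 12 mitochondrially encoded genes 10 were higher on day 10 (median 1.17) and none on day 7. Their part in the day 10 values was not tested. No gene passed a test of the difference between the day 7 and day 10 effects by edgeR's quasi-likelihood test (0 of 12709, 0%), while 1591 had an unadjusted p under 0.05 and limma-voom also called 0. Without depleted library 3 that count was 27, and it was 166 when genes of low counts were kept. For mitosis genes the median was 1.29 on day 7 and 0.91 on day 10, with 42 and 30 of 42 higher. For tissue macrophage genes it was -1.60 and -0.94, with 20 and 13 lower. Cx3cr1 stood at -2.51 on day 7 and -2.32 on day 10, Top2a at 1.72 and 1.37, Psmb9 at 1.74 and 1.49 and Il6 at 1.52 and 2.36. Values that lay further apart, though not called different, were those of Cdc6 (2.03 and 0.17), Mertk (-1.86 and -0.07) and Ccnd3 (0.84 and 0.04). The type 2 and arginine metabolism list had a median of -0.11 on day 7 and 1.13 on day 10, and with 1 library left out its day 7 median ran from -0.44 without depleted library 3 to 0.24 without control library 5.

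Against the muscle defect on the same day, the depletion effect differed for 1187 of 14340 genes (8.28%), and against the skin wound for 1344 (9.37%), by edgeR's test of the difference itself. Of 42 mitosis genes the effect differed from muscle for 35 and from skin for 20, with medians of 1.29 in skull, -0.38 in muscle and 0.12 in skin. Of 34 S phase genes 22 and 18 differed. Top2a changed by -0.53 in muscle and 0.71 in skin against 1.72 in skull (adjusted p of the differences 3.69e-07 and 0.00567). Nusap1 stood at -0.24 and 0.03, Lig1 at -0.28 and -0.24 and Mcm3 at -0.56 and 0.07, and all 3 differed from skull in both tests.

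The effect on 19 and 21 of the lipid-associated list differed from muscle and from skin, where the medians were 0.03 and -0.06 against -1.37, and on the tissue macrophage list 13 and 18 differed. Apoe changed by -1.12 in muscle and -1.12 in skin (adjusted p of the differences 0.00347 and 0.00132), C1qa by -0.76 and 0.02, and Csf1r by -0.09 and -0.23, again different from skull in both tests. Folr2 stood at 0.32 and Cbr2 at -0.11 in skin against -3.06 and -3.16 in skull. Cx3cr1 did not pass either test, at -2.31 in muscle and -2.92 in skin (adjusted p of the differences 0.815 and 0.43). Igf1 stood at 0.58 in muscle and 0.51 in skin against -2.33 in skull, different from both.

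Il1rn changed by 1.44 in muscle against -1.98 in skull, Vegfa by 1.58 against -1.07, Tgm2, transglutaminase 2, by 2.13 against -1.57, the tetraspanin Cd9 by 0.83 against -1.66 and the metalloprotease Adam8 by 1.07 against -1.86, and all 5 differences passed. Arg1 stood at 4.30 in muscle and Chil3 at 5.21, against -0.67 and 1.82 in skull (adjusted p of the differences 0.000454 and 2.66e-05). The share of all genes that passed within muscle or within skin was not counted. List counts within those tissues therefore have no background here. Of 30 glycolysis and hypoxia genes 18 rose in muscle and none fell, and the effect differed from skull for 20. Of 25 type 2 and arginine metabolism genes 3 rose and 3 fell in skull, 14 and 1 in muscle and 12 and 4 in skin. The effect differed from skull for 11 in muscle and 14 in skin. With the covariate 1 rose and 2 fell in skull (median -0.13), and 6 fell there by limma-voom or without depleted library 3. The summed level of the list in skull was 2187 to 3602 CPM in the depleted libraries and 1029 to 2164 CPM in the controls (exact permutation p = 0.00794). Chil3, whose levels are given above, is on this list. It made up the larger part of the mean sum in the depleted group (2681 CPM), so the sum does not describe the list as a whole. Of 9 eosinophil markers 8 were higher in muscle (median 4.17, against 0.21 in skull), 2 were higher and 4 lower in skin, and the effect differed from skull for 8 and 6 of them. The part of eosinophils in these differences was not tested. Interferon-inducible GTPases differed from muscle for 2 of 16 and from skin for none, with medians of 2.06 in skull, 1.05 in muscle and 1.93 in skin, and immunoproteasome genes differed for 1 of 23 in each test.

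**Figure D5:**
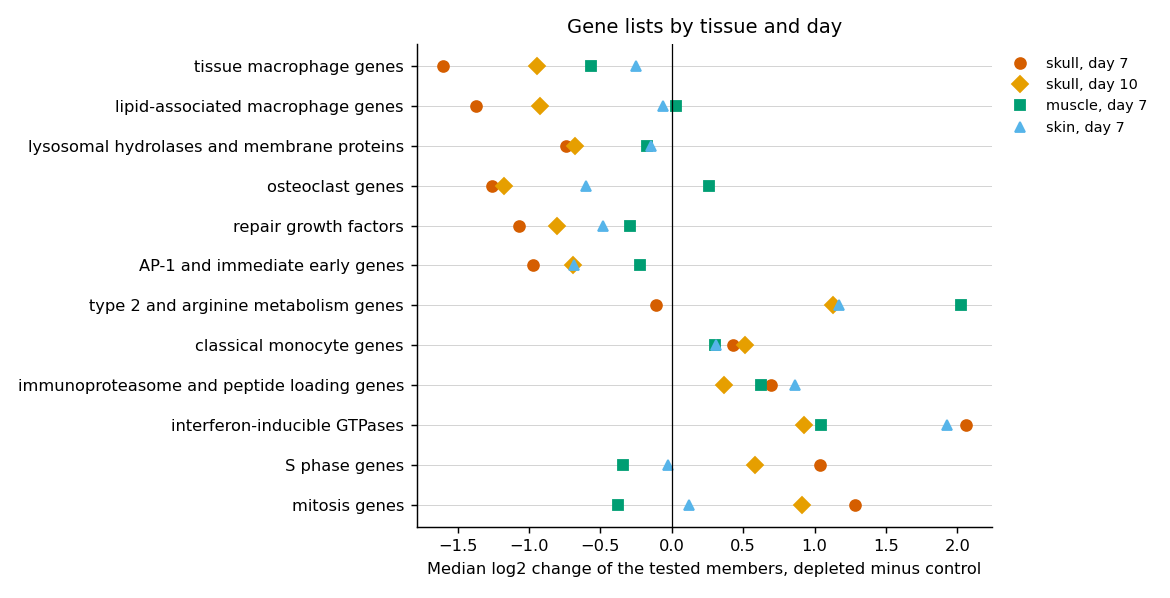
Median log2 change (depleted minus control) of the tested members of 12 gene lists in skull on day 7 and day 10 and in muscle and skin on day 7. Of the 4 comparisons, skull on day 7 lies furthest to the left for tissue macrophage genes (-1.60) and furthest to the right for mitosis genes (1.29), while interferon-inducible GTPases lie above 0 in all 4 comparisons.

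Vmn1r188, annotated as a vomeronasal receptor, measured 6.33, 5.13, 6.96, 9.45 and 2.58 CPM in the depleted libraries and 0, 0, 0, 0.352 and 0 CPM in the controls, and no fold is given because the controls held a single count. Rn18s-rs5 itself did not pass (0.99, adjusted p = 0.113). The counts of some named genes are uncertain because at least 5% of their 31-base words also occur in another annotated gene. These are Cbr2, Spp1, Ctsd, Cd63, Ftl1, Ly6c2 (shared with Ly6c1 and Ly6a), Chil3 (with Chil4), Rrm2, Cdc6, Gbp3, Gbp6, Gbp7, Iigp1, Cxcl2 (with Cxcl3), Phgdh, Trbc2 (with Trbc1), Cd8b1, Vmn1r188, Serpina3g and Cd9. List members given only by value, such as Bglap and Bglap2, were not part of this check.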

How the data were processed

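Monocytes and macrophages sorted from injured tissue were sequenced as 3′ libraries with unique molecular identifiers from 20 ng of RNA, per the labels' protocols. The authors deposited estimated counts per gene for bone, muscle and skin in 1 unscaled table, made with STAR, featureCounts and limma on GRCm38 and GRCm39 per the submitters' processing notes. Use of the identifiers and of strand in counting: not given in the sources used here. Values were rounded to whole counts, since 19.4% of the non-zero ones were more than 0.01 away from one. The table has 57010 genes, and 147 repeated symbols kept the row with most counts. Days are those of the sample labels. The series text also names day 7, but not day 10.

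The test across genes was that of edgeR 4.0.16, run in R 4.3.3 (TMM, filterByExpr, robust quasi-likelihood fit, Benjamini-Hochberg, threshold 0.05) on all 16 bone libraries in 4 groups. Differences between tissues came from a fit of 44 libraries in 12 groups. SE was computed as |log2 change| divided by the root of F. Single sums were tested by two-sided exact permutation. The fit was tested on simulated data. Lists are described by counts and medians. Replicate libraries differed by more than counting error at these depths (chi-square over degrees of freedom, 7.77 to 27.2), so none was treated as a copy of another. This does not show that they are separate animals.

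The members, lists, panel and tests were chosen with earlier results of these data known. Named genes are the panel, the 12 largest changes per direction (mean of 5 CPM or more in a group, groups not overlapping), up to 5 members per list by p and the 6 smallest p per direction of each tissue difference. From these, 118 were printed, picked after their values were seen, and list members outside the rule are given by value. Some genes that the rule names are not reported here. Of the 118, 117 are in GENCODE mouse release M21 (GRCm38), 20 share over 5% of their 31-base words with another gene, and 31 overlap exons of a gene on the other strand, among them Csf1r, Nusap1, Psmb9 and Tap1. Promoters came from a RefSeq table (GRCm38.p6), 1 window of 250 bases per gene. Alternatives were RLE factors, no filter, limma-voom 3.58.1, DESeq2 1.42.0, the 10 libraries alone, a replicate block, unrounded counts, an Rn18s-rs5 covariate, its removal with mitochondrial genes, and each library left out. Leaving out depleted and control library 3 together was chosen after seeing the data.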

Additional observations from a re-analysis of the deposited data

Results flagged for a closer look

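A library that stands far from the other 4 of its group was looked for in 236 groups of 5 values (2 groups for each of 118 genes), and 16 were found (6.78%), where chance gives about 5%. Depleted library 3 was the library that stood apart in 8 of these: it was high for Folr2 (30.6 CPM), Mrc1 (67.9), Ltc4s (59.3), Cxcl9 (190 CPM), Arg1 (368) and Cd8b1 (18.1) and low for Prtn3 (365 CPM) and Il6 (9.91 CPM). Depleted library 4 was high for Cenpe (66.6 CPM) and low for Cd9 (36.0 CPM), and depleted library 5 was high for Phgdh (431 CPM). Control library 4 was high for Tnf (44.0 CPM), Arg1 (386 CPM) and Vmn1r188 (0.352 CPM, a single count). Control library 3 was high for Ccnd3 (429 CPM) and control library 5 low for Osm (28.6 CPM).

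The depletion effect on day 7 differed between skull and muscle for 1187 genes and between skull and skin for 1344 genes by edgeR's test of the difference. As log2 of the skull effect minus the muscle effect, the differences were -0.98 for Csf1r, -1.65 for Folr2, -1.62 for Cbr2, -1.66 for Apoe and -1.51 for C1qa among macrophage genes. For growth factors and secreted proteins they were -2.90 for Igf1, -2.64 for Vegfa, -3.38 for Chil3 and -3.41 for Il1rn, and for Arg1, Tgm2, Cd9 and Adam8 they were -4.96, -3.69, -2.48 and -2.93. Cell cycle genes differed the other way, by 2.26 for Top2a, 1.74 for Nusap1, 1.66 for Mcm3 and 1.61 for Lig1.

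As log2 of the skull effect minus the skin effect, the differences were -0.85 for Csf1r, -3.38 for Folr2, -3.03 for Cbr2, -1.66 for Apoe, -2.29 for C1qa, -2.82 for Igf1, -1.30 for Il1rn, -1.32 for Cd9 and -1.69 for Adam8. For Top2a, Nusap1, Mcm3 and Lig1 they were 1.02, 1.46, 1.04 and 1.57. Each of these genes passed the test of the difference at an adjusted p under 0.05.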

How the results depend on the processing

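The count of 2994 genes was 2985 with RLE factors, 2982 with no filter, 3218 with limma-voom, 3224 with DESeq2, 2725 with the 10 libraries alone, 3004 unrounded, 2981 without Rn18s-rs5 and mitochondrial genes and 2596 without depleted and control library 3. With the Rn18s-rs5 level as a covariate it was 1166 (487 higher, 679 lower), 1121 of them among the 2994, and 2 of the 2994 changed sign. Rn18s-rs5 differs between the groups, so the covariate also takes up part of the group difference, and the cause was not tested. Leaving out each library in turn gave 2309 to 2972 genes. With the replicate number as a block 2555 passed. Libraries with the same replicate number in their titles correlated at -0.0745 to 0.124 in their departures from the group mean. These low values do not exclude a shared preparation. Other numbers in the library names were not tested. The count of 0 genes for day 7 minus day 10 was 166 with no filter and ranged from 0 to 27 with each day 7 library left out (27 without depleted library 3, 1 without control library 2). The cause was not tested. The counts for skull minus muscle ranged from 958 to 1235 and for skull minus skin from 1081 to 1460 with each day 7 skull library left out. RLE factors, no filter and limma-voom gave 1190, 1274 and 1315 for muscle and 1356, 1505 and 1407 for skin.

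Of the 118 printed genes 105 passed. 96 of these passed under every alternative run and 9 did not under at least 1: Ctsk, Acp5, Pdgfb, Cxcl9, Il1b, Cd8b1 and Il10 with the covariate, Il10 also without control library 1, Cd74 with no filter, and Phgdh in 5 alternatives. Of the 13 that did not pass, 8 passed under at least 1 alternative (Mrc1, Hbegf, Mpo, Ciita, Arg1, S100a8, Col1a1 and Rn18s-rs5). No gene that passed changed sign under any of these alternatives. Among genes that did not pass, some estimates crossed 0, such as Tgfb1 (-0.20 to 0.00), Cxcl10 (-0.01 to 1.14), Cd274 (-0.08 to 0.62) and Rn18s-rs5 (-0.17 to 1.59). The range of Rn18s-rs5 includes the fit with its own level as the covariate, which takes up its change by construction. Depth limits Foxp3, Nos2, Bmp2, Ifng and Cd3e, which had at most 65 counts per group and were not tested.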
